A study of Mus musculus with 6 samples.

Results

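Glyceroneogenesis and triglyceride assembly were followed through 8 genes, *Pck1*, *Pcx*, *Gpd1*, *Gpam*, *Agpat2*, *Lpin1*, *Dgat1* and *Dgat2*, of the 15280 genes in an RNA-Seq table of BK5.ATF3 mouse mammary tumors and normal mammary glands. The 8 gene symbols were selected on their tumor and gland values, with their lower tumor expression already known, so the tumor against gland values of these genes are given as a description with no test. All 8 were present in the table and none was removed by a filter on low values.

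The study compared single tumors of 3 parous transgenic females with the adjacent normal gland of the same animal, 3 libraries per tissue, and asked which genes set the tumors apart. Every mouse, glands included, carried the BK5.ATF3 transgene, in which the bovine keratin 5 promoter drives the transcription factor ATF3 in basal epithelial cells, and no wild-type gland was part of the comparison. The tumors of these females appeared at 6 to 12 months of age, and tissue was taken when the tumor was 1.5 cm long. Libraries are called M (gland) or T (tumor) followed by the number of the mouse, so that M11035 and T11035, M11640 and T11640, and M9232 and T9232 are the 3 pairs. Each of the 3 tumors is a single tumor of whole tissue, so a gland library mixes fat, epithelium, vessels and other cells in its own proportions.

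Fat cells store fatty acids as triglyceride on a glycerol 3-phosphate backbone. Because white adipocytes reuse free glycerol poorly, much of this backbone is made by glyceroneogenesis, in which pyruvate carboxylase makes oxaloacetate, phosphoenolpyruvate carboxykinase (PEPCK) turns it into phosphoenolpyruvate, and glycerol 3-phosphate dehydrogenase reduces dihydroxyacetone phosphate. Acyltransferases then add fatty acids (GPAT, AGPAT), lipins remove the phosphate, and diacylglycerol acyltransferases (DGAT) add the last fatty acid. The mammary fat pad is rich in adipocytes, and the same assembly enzymes also serve milk fat synthesis in the secretory epithelium.

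Expression is given as CPM, fragments per 1000000 of the effective library size, with 4750989 to 7806908 fragments per library and a floor of 3 fragments (0.393 to 0.610 CPM). The labelled tissues were checked with marker genes. Epithelial markers summed to 270–601 CPM in glands and 2654–3068 CPM in tumors, whereas adipocyte markers summed to 3566–7146 CPM in glands and 214–269 CPM in tumors. *Fabp4* was the largest part of the adipocyte sum in every library. The glands also differed among themselves. Skeletal muscle markers summed to 4184 CPM in M11035, 1605 CPM in M11640 and 5.33 CPM in M9232, and milk protein genes reached 43307 CPM in M9232 against 3284 and 5403 CPM in M11035 and M11640.

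All 8 genes were lower in the tumor than in the gland of each of the 3 mice, and for none of them did the 3 tumors and the 3 glands overlap (across all genes, 26.3% had all tumors below all glands). The median log2 difference of the 8 genes was −3.87, with −3.94 for the pair of T11035, −4.35 for that of T11640 and −3.52 for that of T9232, and −0.00 across all genes. A gene was called a differentially expressed gene (DEG) with limma at FDR ≤ 0.05 and FC ≥ 2, and 8 of 8 were called lower, beside 13.7% of all genes tested. Since the genes were selected on this contrast, nothing is read from that count. In bulk tissue, fewer cells of a type and less RNA per cell cannot be told apart, which touches every comparison given here.

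**Figure D1:**
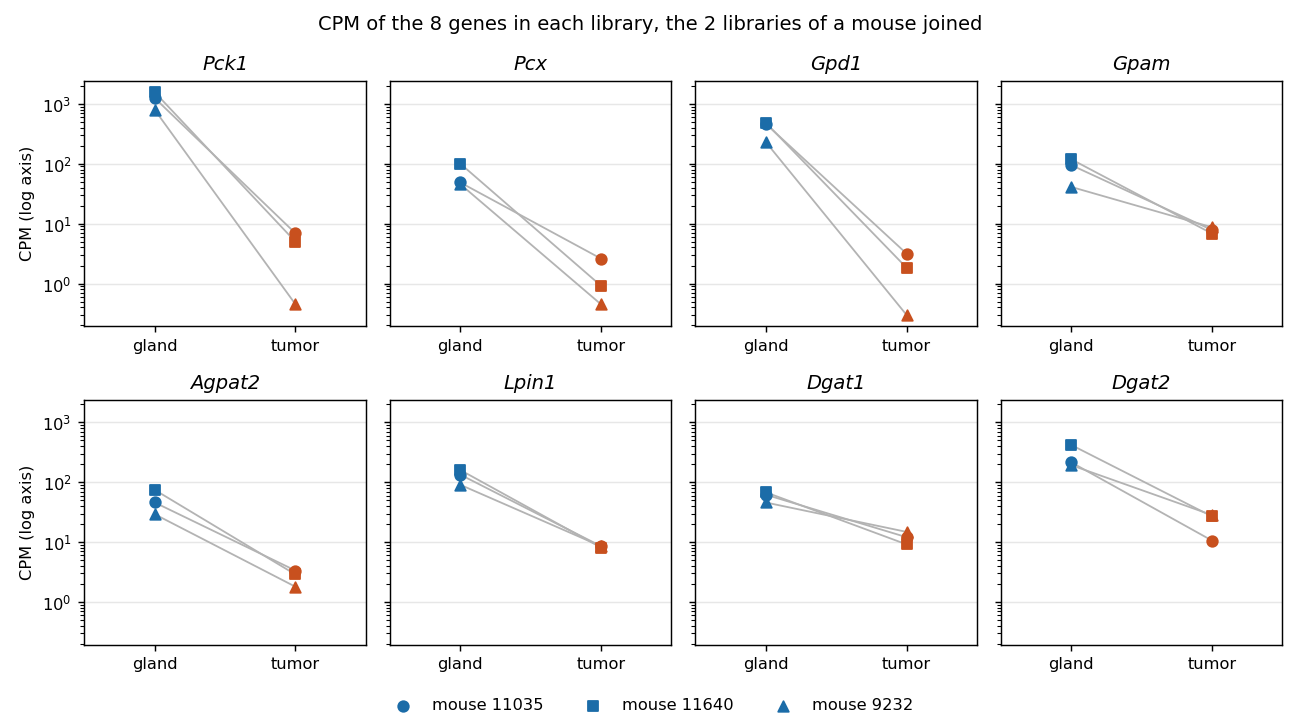
Expression of the 8 genes in CPM on a log axis, in the normal gland (blue) and the tumor (orange), with 1 point per library and the gland and tumor of the same mouse joined. Every line runs downward, from the steepest for *Pck1* (182- to 1770-fold by mouse) to the shallowest for *Dgat1* (3.10- to 7.42-fold).

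The first enzymes supply glycerol 3-phosphate. *Pck1* (chr2:172978549-172984774, mm9, plus strand) encodes the cytosolic PEPCK, the enzyme for which glyceroneogenesis is best known. It was read at 1250, 1567 and 796 CPM in M11035, M11640 and M9232, and at 6.88, 4.98 and 0.450 CPM in T11035, T11640 and T9232. The gland mean was 1204 ± 388 CPM (SD, n = 3) and the tumor mean 4.10 ± 3.31 CPM (SD, n = 3), a log2 difference of −8.43 (SE 0.67). Within mice, the gland exceeded the tumor 182-fold, 315-fold and 1770-fold in the pairs of T11035, T11640 and T9232. The last ratio rests on 3 tumor fragments and has a 95% counting interval of 605 to 8586, and without T9232 the log2 difference was −7.51.

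*Pcx* (chr19:4510472-4621752, plus strand) encodes pyruvate carboxylase, the mitochondrial enzyme that makes oxaloacetate. It stood at 48.8, 101 and 45.8 CPM in the glands and at 2.61, 0.917 and 0.450 CPM in the tumors, in the same order of mice. The highest tumor was thus far below the lowest gland, although the tumor values came from 14, 7 and 3 fragments. Means were 65.1 ± 30.9 and 1.32 ± 1.13 CPM (SD, n = 3 each), and the log2 difference was −5.25 (SE 0.46).

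*Gpd1* (chr15:99547946-99555436, plus strand) encodes the cytosolic glycerol 3-phosphate dehydrogenase. Its values were 466, 485 and 231 CPM in the 3 glands against 3.16, 1.83 and 0.300 CPM in the 3 tumors, in that order again. The glands averaged 394 ± 141 CPM and the tumors 1.77 ± 1.43 CPM (SD, n = 3 each), with a log2 difference of −7.62 (SE 0.53). M9232 exceeded T9232 772-fold, with a counting interval of 213 to 6378 from 2 tumor fragments, and without T9232 the log2 difference became −7.00. An annotated gene absent from the table, Gm16537, overlaps exons of *Gpd1* in GENCODE vM1.

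The acyltransferase steps differed by less. *Gpam* (chr19:55142142-55201824, minus strand) encodes the mitochondrial GPAT1, which adds the first fatty acid. Its gland values of 94.9, 119 and 41.0 CPM stood against tumor values of 7.82, 6.81 and 8.69 CPM, so that the tumors were alike and the glands were not. The means were 85.0 ± 39.9 and 7.77 ± 0.939 CPM (SD, n = 3 each), and the log2 difference was −3.24 (SE 0.36).

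*Agpat2* (chr2:26448577-26459937, minus strand) encodes the AGPAT isozyme best known from adipose tissue, since its loss causes congenital lipodystrophy. It reached 45.9, 74.7 and 29.3 CPM in the glands and 3.35, 2.88 and 1.80 CPM in the tumors. The difference on the log2 scale was −3.92 (SE 0.35), from means of 49.96 ± 23.0 and 2.68 ± 0.796 CPM (SD, n = 3 each). Its exons overlap those of *Egfl7*, and the library kit does not mark strand, so fragments in the overlap cannot be assigned with certainty.

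*Lpin1* (chr12:16542475-16596576, minus strand) encodes lipin 1, the phosphatidate phosphatase that makes diacylglycerol. The 3 tumors were almost identical at 8.56, 8.13 and 8.54 CPM, while the glands held 134, 161 and 90.8 CPM. Its means of 129 ± 35.2 and 8.41 ± 0.246 CPM (SD, n = 3 each) gave a log2 difference of −3.82 (SE 0.22).

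*Dgat1* and *Dgat2* encode unrelated enzymes for the final step. For *Dgat1* (chr15:76332445-76342381, minus strand), gland values of 62.0, 68.1 and 46.0 CPM stood against 12.1, 9.17 and 14.8 CPM in tumors, the smallest log2 difference of the 8 at −2.25 (SE 0.23, means 58.7 ± 11.4 and 12.0 ± 2.83 CPM, SD, n = 3 each). *Dgat2* (chr7:106302173-106331223, minus strand) was read at 215, 420 and 193 CPM in glands and at 10.6, 26.9 and 28.3 CPM in tumors. Its log2 difference was −3.66 (SE 0.41, means 276 ± 125 and 21.9 ± 9.83 CPM, SD, n = 3 each), and T11035 held less of it than the other tumors.

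Levels of different genes were compared per kilobase of the longest coding transcript. In glands the mean order was *Pck1* (453 CPM per kb), *Gpd1* (138), *Dgat2* (123), *Agpat2* (33.6), *Dgat1* (31.1), *Lpin1* (22.8), *Pcx* (15.7) and *Gpam* (13.7). Of these neighbours, only *Pck1* and *Gpd1*, and *Dgat2* and *Agpat2*, did not overlap between their 3 libraries. The tumor order began with *Dgat2* (9.74 CPM per kb) and *Dgat1* (6.37), followed by *Agpat2* (1.80), *Pck1* (1.54), *Lpin1* (1.49), *Gpam* (1.25), *Gpd1* (0.617) and *Pcx* (0.319). Among tumors only *Dgat1* and *Agpat2*, and *Lpin1* and *Gpam*, did not overlap as neighbours. *Pck1* stood at 2.59, 1.87 and 0.169 CPM per kb in T11035, T11640 and T9232, a range that overlapped those of *Agpat2*, *Lpin1*, *Gpam*, *Gpd1* and *Pcx*. The place of *Pck1* among the genes below *Dgat1* is therefore not resolved, and its mean includes T9232 with 3 fragments.

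Within the glands the 8 genes shared an order. Each was highest in M11640 and lowest in M9232, an order that 14.0% of all genes followed. The ratio of the highest to the lowest gland ran from 1.48 for *Dgat1* to 2.90 for *Gpam*, whereas genes of similar mean expression had median ratios of 1.28 to 1.35. Adipocyte markers had the same order in 9 of 10 cases and were lowest in M9232 in 10 of 10 (28.4% of all genes were lowest there). Brown adipocyte markers were also lowest in M9232 in 7 of 7 cases, with the full order in 1. Skeletal muscle markers were lowest there in 8 of 8, with the full order in 0. M9232 was the gland with the most milk protein mRNA, and the part of these differences in tissue makeup in the spread of the 8 genes was not tested.

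The tumors showed no shared order. *Pck1*, *Pcx*, *Gpd1* and *Agpat2* were lowest in T9232, while *Gpam*, *Dgat1* and *Dgat2* were highest in that same tumor. The highest to lowest ratio among tumors was 15.3 for *Pck1*, 10.6 for *Gpd1* and 5.80 for *Pcx*, and 1.05 for *Lpin1*. Thus the 3 genes of glycerol 3-phosphate supply, which were close to the detection floor in T9232, varied most.

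Most of these enzymes have isozymes, which were listed with earlier results of these data known, and these did not all follow. The genes above had been selected with their lower tumor values already known. Isozymes that did not follow, and smaller tumor shares of the selected genes in their families, are therefore partly built in by that selection. The isozyme values and shares describe the families and are not an independent comparison. Of 17 isozyme genes present in the table (18 listed), 5 were lower, 3 were higher and 9 were not called, with a median log2 difference of −0.64 (all genes −0.00, with 13.7% called lower and 14.5% called higher).

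*Pck2*, the mitochondrial PEPCK, was read at 6.91, 9.08 and 9.71 CPM in glands and 12.5, 6.68 and 7.34 CPM in tumors, with overlapping groups. Its log2 difference of 0.00 (SE 0.28, limma adjusted p = 0.994) stood beside the −8.43 of *Pck1*. Per kilobase, *Pck1* made up 99.4 ± 0.292% of PEPCK mRNA in glands and 32.5 ± 22.1% in tumors (SD, n = 3 each), where *Pck2* took the remaining 67.5%. The tumor share was uneven, with *Pck1* at 41.4%, 48.8% and 7.26% of PEPCK mRNA in T11035, T11640 and T9232. The summed PEPCK level was 455 ± 146 CPM per kb in glands and 4.14 ± 1.98 in tumors (SD, n = 3 each), a 110-fold difference.

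Because *Pck1* and *Pck2* differed most between tissues within a family, their promoters are shown as 300 bases (250 before and 50 after the transcription start) from RefSeq (GRCm38.p6). Both matched the mm9 genome at a single place, given here on the plus strand. The motifs searched on both strands were the TATA box TATAAA, the box CCAAT, the E-box CACGTG, the hexamer ACGTCA of the cAMP response element, the nuclear receptor half-site AGGTCA, and a pair of such half-sites 1 base apart with up to 1 mismatch per copy. Matches are in capitals.
Pck1, chr2:172978324-172978623: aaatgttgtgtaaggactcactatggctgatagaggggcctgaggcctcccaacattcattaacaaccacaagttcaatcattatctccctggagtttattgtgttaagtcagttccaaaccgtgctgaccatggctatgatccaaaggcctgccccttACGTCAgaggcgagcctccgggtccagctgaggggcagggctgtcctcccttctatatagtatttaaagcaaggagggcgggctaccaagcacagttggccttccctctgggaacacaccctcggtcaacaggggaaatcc
Pck2, chr14:56158853-56159152: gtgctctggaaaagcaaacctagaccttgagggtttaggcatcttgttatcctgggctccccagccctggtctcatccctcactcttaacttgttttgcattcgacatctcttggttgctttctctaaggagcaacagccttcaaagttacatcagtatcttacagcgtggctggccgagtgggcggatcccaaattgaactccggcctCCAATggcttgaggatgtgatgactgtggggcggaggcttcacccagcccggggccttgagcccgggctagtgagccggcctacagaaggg
The *Pck1* window held ACGTCA at −91 to −86, a hexamer found in 7.51% of 32851 mouse promoters of the same length. The *Pck2* window held CCAAT at −41 to −37, present in 37.4% of promoters, and no ACGTCA. These are letter matches and not measured binding.

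For glycerol 3-phosphate dehydrogenase, the mitochondrial *Gpd2*, which oxidises glycerol 3-phosphate, fell from 457 to 62.0 CPM on average (log2 difference −2.82, SE 0.23, limma adjusted p = 3.26e-05). *Gpd1l*, a cytosolic relative, fell by 1.25 on the log2 scale (SE 0.26, limma adjusted p = 0.00502). *Gpd1* was the most abundant of the 3 per kilobase in glands at 60.6 ± 3.34% and the least abundant in tumors at 4.05 ± 3.03%, where *Gpd2* held 74.4 ± 7.10% (SD, n = 3 each). Without division by length the gland order turned, with *Gpd2* at 51.8% and *Gpd1* at 44.0%, while *Gpd1* stayed the least abundant in tumors (2.19%).

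Among the GPATs, *Agpat9* (GPAT3), an endoplasmic reticulum enzyme induced during fat cell differentiation, fell by 2.70 on the log2 scale (SE 0.25, limma adjusted p = 7.67e-05). *Agpat6* (GPAT4) had a log2 difference of −0.92 (SE 0.16, limma adjusted p = 0.00228), under the 2-fold limit. As a share of GPAT mRNA per kilobase, *Agpat6* went from 27.9 ± 8.28% in glands to 60.2 ± 4.83% in tumors, and *Gpam* from 26.2 ± 6.94% to 10.9 ± 1.60% (SD, n = 3 each). Without division by length the *Gpam* shares were 39.2% and 17.2%.

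In the AGPAT family *Agpat3* fell (−1.44, SE 0.18, limma adjusted p = 0.000385), whereas *Agpat4* rose from 12.6, 6.94 and 9.16 CPM to 18.6, 22.8 and 16.8 CPM (1.01, SE 0.25, limma adjusted p = 0.0123). The *Agpat4* call sat at the 2-fold limit and was lost in 5 of 14 alternative settings, including without M11640 (0.81), M9232 or T11640 (0.89). *Agpat1*, *Agpat5* and *Lclat1* were not called, at −0.51, 0.43 and −0.66. *Agpat2* accounted for 47.0 ± 9.99% of AGPAT mRNA per kilobase in glands and 5.93 ± 1.91% in tumors, and *Agpat4* for 7.69 ± 3.05% and 33.2 ± 4.05% (SD, n = 3 each). Without division by length *Agpat2* made up 22.0% and 2.11% and *Agpat4* 4.48% and 15.1%, and the largest tumor share was that of *Agpat5* (31.2%).

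In the lipin family other members rose. *Lpin2*, lipin 2, another phosphatidate phosphatase, rose from 56.5, 53.7 and 84.1 CPM in glands to 127, 169 and 275 CPM in tumors (log2 difference 1.50, SE 0.29, limma adjusted p = 0.00358), with no overlap and a rise in each of the 3 mice. *Lpin3* rose from 1.51 to 4.41 CPM on average (1.31, SE 0.35, limma adjusted p = 0.0165), a call lost without M11640 (adjusted p = 0.0507) or T11640 (adjusted p = 0.0742, both limma), so that without either library 1 of the 17 isozymes was called higher. *Lpin1* went from 65.0 ± 12.5% to 4.46 ± 1.54% of lipin mRNA per kilobase and *Lpin2* from 33.7 ± 11.7% to 91.7 ± 2.87%. The family total was 34.8 ± 3.34 CPM per kb in glands and 36.5 ± 13.4 in tumors (SD, n = 3 each), a ratio of 0.953.

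The promoters of this pair are printed in the same way. The *Lpin1* window, on the minus strand, has its RefSeq start at −21196 relative to the start annotated in GENCODE vM1, and for *Lpin2*, on the plus strand, the first of 3 RefSeq starts is shown.
Lpin1, chr12:16617723-16618022: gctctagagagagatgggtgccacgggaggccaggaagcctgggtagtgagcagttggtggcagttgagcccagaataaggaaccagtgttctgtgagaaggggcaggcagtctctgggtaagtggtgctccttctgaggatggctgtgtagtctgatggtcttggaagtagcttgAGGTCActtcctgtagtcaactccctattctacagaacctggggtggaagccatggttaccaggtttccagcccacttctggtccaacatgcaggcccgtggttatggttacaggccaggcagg
Lpin2, chr17:71532622-71532921: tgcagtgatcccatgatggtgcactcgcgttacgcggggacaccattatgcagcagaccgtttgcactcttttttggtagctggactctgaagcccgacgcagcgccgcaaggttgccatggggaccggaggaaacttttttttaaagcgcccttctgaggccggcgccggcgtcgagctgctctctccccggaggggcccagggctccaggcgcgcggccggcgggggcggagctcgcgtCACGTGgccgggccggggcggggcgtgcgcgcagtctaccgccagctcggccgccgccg
*Lpin1* held AGGTCA at −74 to −69 (16.3% of all promoters hold this hexamer), and *Lpin2* held CACGTG at −9 to −4 (7.15%). *Lpin1* had 2 CpG dinucleotides in its 300 bases, and the 3 windows of *Lpin2* had 37, 54 and 4, with a median of 7 over all promoters. Of the *Lpin2* windows only the first held CACGTG, and the third held CCAAT 3 times. Of the 8 genes, 5 had RefSeq promoters in the table used (7 windows), and none of the 7 held TATAAA (13.6% of all promoters) or the paired half-site (2.40%).

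Both DGAT genes were lower in tumors, *Dgat2* by more. *Dgat2* made up 78.7 ± 4.73% of DGAT mRNA per kilobase in glands and 58.3 ± 14.6% in tumors (SD, n = 3 each), and the summed level went from 154 ± 60.3 to 16.1 ± 4.70 CPM per kb. *Mogat1*, a monoacylglycerol acyltransferase that also makes diacylglycerol, was at or under 3 fragments in every tumor. Its gland mean of 7.28 CPM (8.13, 11.2 and 2.46 CPM) was 15.6-fold above the mean tumor floor, a bound on the means and not on each mouse. *Mogat2* (−0.93) and the phosphatidate phosphatases *Ppap2a*, *Ppap2b* and *Ppap2c* (−0.64, −0.58 and 0.72) were not called.

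**Figure D2:**
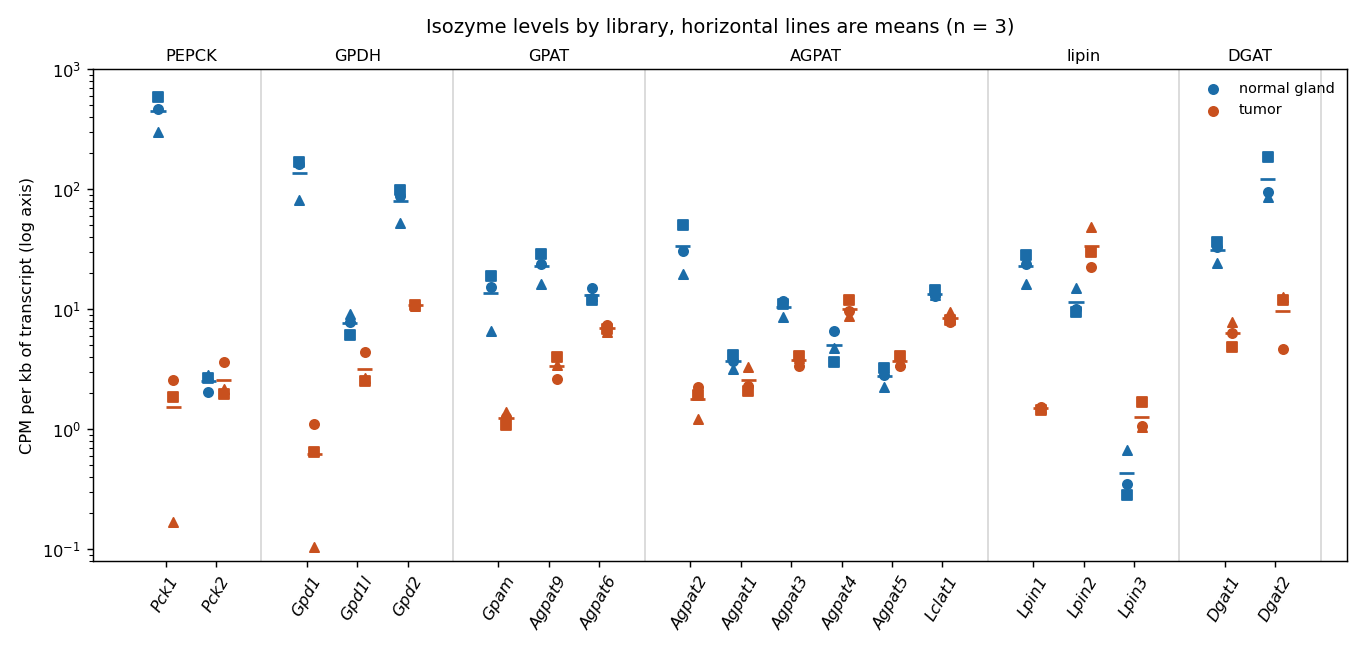
Levels of the 8 genes and their isozymes in CPM per kilobase of transcript on a log axis, by enzyme family, with blue for normal glands, orange for tumors, circles, squares and triangles for the mice of T11035, T11640 and T9232, and lines at the means of 3 libraries. *Pck2* overlaps between tissues while *Pck1* does not, and *Lpin2* stands higher in tumors (127 to 275 CPM before division by length) where *Lpin1* stands lower.

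Beyond the isozymes, 6 lists of related genes were examined. With the isozymes they held 111 genes in the table, of which 53 were lower, 13 higher and 45 not called, with a median log2 difference of −0.93. Those called lower were 47.7% and those called higher 11.7%, beside 13.7% and 14.5% of all genes (28.2% in either direction). The lists had been drawn up with earlier results of these data known.

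Of 16 genes that bring pyruvate and malate to the pathway, 8 were called lower, 1 higher and 7 not called (median −1.26). *Pdk4*, a kinase that shuts pyruvate dehydrogenase and so spares pyruvate for carboxylation, was at 289, 259 and 249 CPM in glands and 6.70, 8.13 and 8.09 CPM in tumors (−5.03, SE 0.16, limma adjusted p = 5.14e-07). Decreases were also called for the NADPH-producing malic enzyme *Me1* (−4.50), the citrate carrier *Slc25a1* (−3.74), and *Brp44l* and *Brp44*, the subunits of the mitochondrial pyruvate carrier (−3.72 and −3.13). *Slc25a13*, a mitochondrial aspartate/glutamate carrier, rose (2.25, SE 0.25, limma adjusted p = 0.000201). The glycolytic genes *Gapdh* (0.10), *Tpi1* (0.62) and *Pgk1* (0.99) were not called, although *Pgk1* was called without M11035, M11640 or T11035.

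For fatty acid uptake and activation, 7 of 16 genes were lower, 3 higher and 6 not called (median −0.92). Lipoprotein lipase *Lpl*, the fatty acid transporter *Cd36*, the binding protein *Fabp4* and the acyl-CoA synthetase *Acsl1* fell (log2 differences −4.82, −4.50, −4.55 and −3.75). The transporter *Slc27a1* fell too (−3.29). Among the other members of these families, *Acsl4*, *Acsl5* and *Acsl6* were not called (−0.12, −0.73 and −0.51). *Fabp5*, the epidermal fatty acid binding protein, went from 120, 190 and 144 CPM in glands to 543, 681 and 680 CPM in tumors (2.09, SE 0.19, limma adjusted p = 6.53e-05), and *Acsl3* rose by 1.72 and *Slc27a3*, which was low in both tissues (0.461 and 3.59 CPM on average), by 2.11 on the log2 scale (2.91 with DESeq2). *Slc27a2* was at or under 3 fragments in every tumor and at least 38.3-fold lower in mean. *Gpihbp1*, the capillary anchor of lipoprotein lipase, missed the threshold (−1.11, limma adjusted p = 0.0535) and passed it with mouse as a block (adjusted p = 0.0486).

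Lipolysis and glycerol handling contained the largest rise of these lists, with 7 of 11 genes lower, 1 higher and 3 not called (median −3.23). The triglyceride lipases *Pnpla2* (ATGL) and *Lipe* (HSL) and the monoglyceride lipase *Mgll* fell (log2 differences −4.86, −3.23 and −3.54), as did *Ces1d*, a carboxylesterase with triglyceride hydrolase activity (−8.09, and −9.13 with a pseudocount of 0.1). The 2 glycerol channels went opposite ways. *Aqp7*, the channel of adipocytes, was read at 68.5, 95.3 and 58.0 CPM in glands and 1.12, 0.524 and 1.95 CPM in tumors (−5.51, SE 0.34, limma adjusted p = 9.46e-06). *Aqp3*, the channel of epidermis and other epithelia, was read at 1.83, 0.661 and 1.64 CPM in glands and 62.9, 67.5 and 64.4 CPM in tumors (5.19, SE 0.28, limma adjusted p = 5.56e-06). Glycerol kinase *Gyk*, which makes glycerol 3-phosphate from free glycerol, was not called (0.57, limma adjusted p = 0.146), with values of 48.2, 42.9 and 75.1 CPM in glands and 103, 93.1 and 53.9 CPM in tumors.

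Droplet packaging genes were lower in 8 of 10 cases, with 1 higher and 1 not called (median −2.17). *Cidec*, *Plin1*, *Plin4* and *Cidea*, coat and fusion proteins of adipocyte droplets, fell (log2 differences −6.78, −6.38, −5.33 and −4.69). For 2 of them, which were read near the floor in tumors, DESeq2 gave larger differences (*Plin1* −7.35 and *Cidea* −5.43). *Plin2*, the coat protein found in most cells, fell less (−2.02), and *Plin3* was not called (−0.08). *Hilpda*, an inhibitor of ATGL induced by hypoxia, rose (1.83, SE 0.35, limma adjusted p = 0.0034). *Bscl2* (seipin), called lower at −1.12, lost the call without M11640 or T11035 (−0.97 in both).

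The phospholipid branches, which share phosphatidate and diacylglycerol with triglyceride assembly, had a median of 0.02 with 5 of 18 genes lower, 2 higher and 11 not called. *Chpt1*, cholinephosphotransferase, fell from 1653 to 64.7 CPM on average (log2 difference −4.60). *Cds1* rose (2.21, SE 0.20, limma adjusted p = 6.27e-05) while *Cds2*, the other CDP-diacylglycerol synthase, fell by 1.13 on the log2 scale. *Ept1* rose by 1.12. *Pcyt2* was called lower (−1.20, limma adjusted p = 0.0396) but lost the call in 5 alternatives, among them without M11035, M11640, T11640 or T9232 (limma adjusted p = 0.0950 to 0.133). *Pcyt1b* was not called (1.09, limma adjusted p = 0.0559) and was called with mouse as a block (adjusted p = 0.0299).

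Of 23 regulators, 13 were lower, 2 higher and 8 not called (median −1.11). *Pparg*, the nuclear receptor required for adipocyte formation, was at 118, 140 and 59.2 CPM in glands and 4.28, 11.7 and 10.2 CPM in tumors (−3.55, SE 0.41, limma adjusted p = 0.000247). *Mlxipl* (ChREBP), a glucose-responsive activator of lipogenic genes, and *Ppara* fell (log2 differences −5.38 and −5.24, the former −4.63 without T9232 and the latter −6.11 with DESeq2). *Adrb3*, the β3-adrenergic receptor of fat cells, was at or under 3 fragments in every tumor and at least 96.7-fold lower in mean. Smaller decreases were seen for *Cebpa* (−1.99), *Srebf1* (−1.46) and the glucocorticoid receptor *Nr3c1* (−1.11). *Cebpb* rose (1.34, SE 0.23, limma adjusted p = 0.00221), and *Ppard* rose by 1.05. The *Ppard* call was lost without M11640 (0.94) or T9232 (0.90) and at a pseudocount of 1 (0.98), each of which leaves 1 regulator called higher. *Creb1* and *Crtc2*, which mediate cAMP responses at the *Pck1* promoter, were not called (−0.03 and −0.22).

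**Figure D3:**
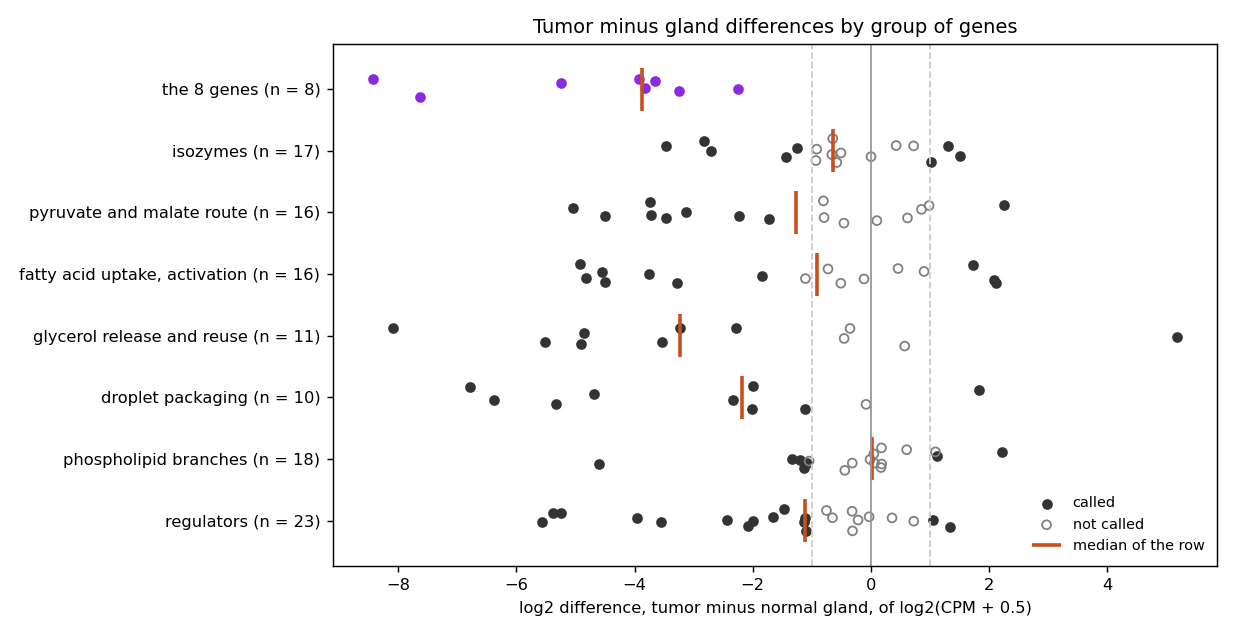
Log2 difference, tumor minus normal gland, for the 8 genes and for 7 groups of related genes, with filled points for called genes, open points for genes not called, orange bars at medians and dashed lines at a 2-fold difference. The 8 genes (median −3.87) all lie below −2, while the isozymes (median −0.64) and phospholipid branch genes (median 0.02) lie on both sides of 0.

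Adipocyte markers were set beside the 8 genes. All 10 were called lower in tumors (median −6.18), and 3 of the 10 also stand in the lists above. *Adipoq* (adiponectin) was read at 353, 587 and 299 CPM in glands and 3.72, 4.06 and 1.05 CPM in tumors, and *Lep* was at or under 3 fragments in every tumor. *Fabp4* remained the most abundant adipocyte marker of the tumors at 132 to 186 CPM, followed by *Aoc3* at 70.1 to 78.2 CPM. Together they made up most of the tumor sum of these markers. Brown adipocyte markers were lower for 6 of 7 genes (228–697 CPM summed in glands, 35.2–75.5 CPM in tumors), with *Ucp1*, *Elovl3* and *Otop1* at or under 3 fragments in every tumor. The tumor sum was almost entirely *Dio2*, the marker not called, at 32.6, 36.3 and 72.8 CPM in T11035, T11640 and T9232. Among tumors the sums had no common order. The 8 genes summed to 55.1, 61.6 and 63.4 CPM in T11035, T11640 and T9232, and adipocyte markers to 230, 269 and 214 CPM. In T9232, *Dgat2* and *Dgat1* held 28.3 and 14.8 CPM of the sum of the 8 genes. The part of adipocyte content in the lower values of the 8 genes was not tested.

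The other marker lists were examined in the same way. Milk protein genes were called lower for 7 of 8 (median −4.66), and epithelial markers were called higher for 8 of 10 (median 1.96), led by *Krt14* and *Krt5*. Muscle markers were called lower for 2 of 8 (median −3.93). M9232 held 5.33 CPM of them in all, and its ratios to T9232 for the 8 genes ran from 3.10 to 1770. The part of muscle content was not tested. Hepatocyte markers, included because liver also makes glucose through *Pck1*, were called lower for 3 of the 4 in the table (median −2.51). Their sum in glands (520 to 614 CPM) was almost entirely *Cyp2e1* at 500, 585 and 600 CPM (log2 difference −6.64), while albumin did not exceed 13.7 CPM in any gland. Macrophage markers (1 higher and 1 lower of 8, median 0.14) and endothelial markers (2 lower of 8, median −0.39) had smaller differences.

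**Figure D4:**
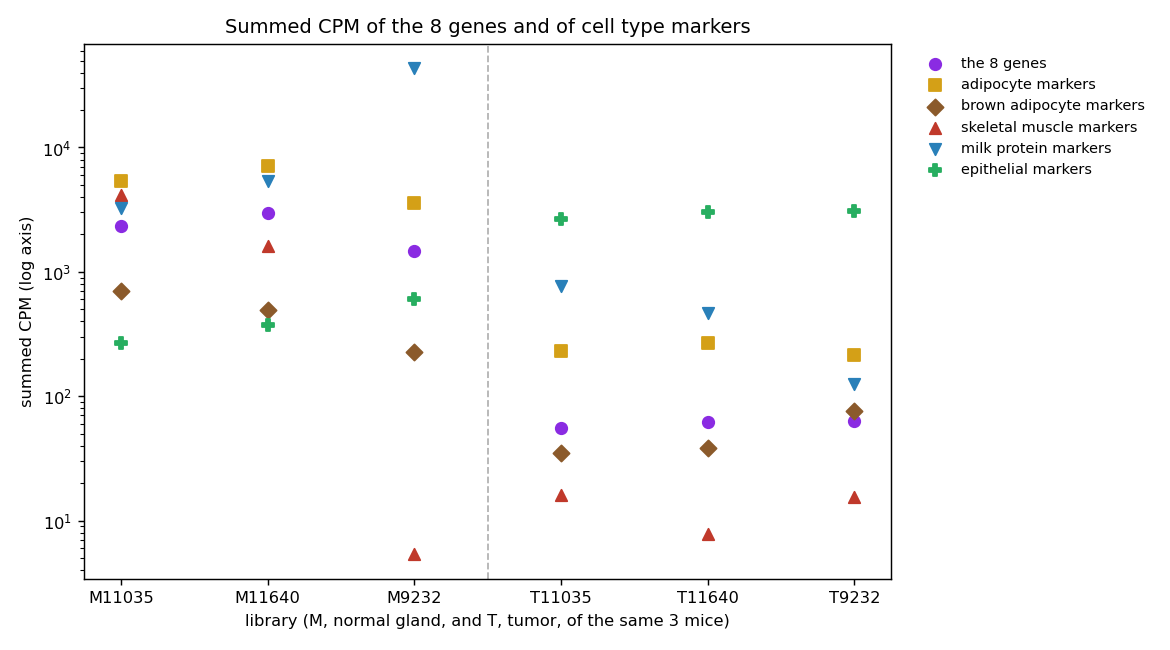
Summed CPM per library on a log axis for the 8 genes and for 5 lists of cell type markers, glands at left of the dashed line and tumors at right. The 8 genes (1473 to 2994 CPM in glands, 55.1 to 63.4 CPM in tumors) and adipocyte markers (3566 to 7146 and 214 to 269 CPM) were both highest in M11640 and lowest in M9232 among glands. Among tumors the sum of the 8 genes was highest in T9232, where the adipocyte sum was lowest. Of its 63.4 CPM, *Dgat2* held 28.3 and *Dgat1* 14.8 CPM, whereas *Pck1*, *Pcx*, *Gpd1* and *Agpat2* were lowest in T9232.

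The genes whose pattern over the 6 libraries was most like the mean of the 8 were *Prkar2b*, 2310001A20Rik, *Slc22a3*, *Fam82b* and *Ankrd5*, with Pearson r of 0.9996 to 0.9991 among 9331 candidates of at least 10 CPM on average. The 6 points fall into 2 clusters, the tissues. *Prkar2b*, the RIIβ regulatory subunit of protein kinase A, averaged 558 CPM in glands and 24.1 CPM in tumors.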

How the data were processed

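RNA-Seq libraries of 3 BK5.ATF3 mammary tumors and the adjacent normal gland of the same 3 mice were analysed, all 6 in 1 table. According to the methods and processing notes, the authors mapped read pairs to mm9 with TopHat2 2.0.3, counted fragments on RefSeq genes with HTSeq 0.5.3p9 and dropped genes under 10 fragments in total. The authors deposited a normalized expression signal, CPM scaled by edgeR's effective library size (edgeR 3.6.1), so small differences between library sizes are already taken out. In each library 100% of values were whole multiples of 1 fragment (tolerance 0.01), which gave back counts with totals of 4750989 to 7806908. Of per-sample columns, 0 were left out.

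limma 3.58.1 with a variance trend was fitted to log2(CPM + 0.5) of all 15280 genes, without a block, in R 4.3.3, with Benjamini-Hochberg adjustment. Differences are on that scale, which understates changes of low genes. The design had assumed plain CPM, and the test was kept. edgeR 4.0.16 and DESeq2 1.42.0 on the recovered counts, other pseudocounts, a filter on low values, plain library totals, mouse as a block and leaving out each library were alternatives. The code was tested on simulated data. Gland and tumor of 1 animal share a number, and their deviations from tissue means correlated at 0.107, 0.151 and 0.0168 (pairs of T11035, T11640 and T9232, over 14712 genes). With 3 libraries per tissue the smallest exact permutation p is 0.1, and no such test was run. Libraries of 1 tissue differed from each other by far more than counting error (chi-square per degree of freedom at least 13.1).

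The members and all lists were chosen with earlier results of these data known. Named genes were the 8 members, all isozymes, up to 4 called genes per direction in each further list with a mean of at least 1 CPM, others of a list beside its count, the most abundant and the floor-level markers, and the 5 most similar genes. *Srebf1*, *Nr3c1*, *Plin2* and similar smaller changes are named beside their list's count. Positions and lengths come from GENCODE vM1 (mm9), and no other transcript matched a member's at 95% identity over 500 bp. Intervals and the floor of 3 fragments cover counting error only. The miRNA arrays, RT-qPCR and human data were not used here.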

Additional observations from a re-analysis of the deposited data

How the results depend on the processing

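All 8 genes kept their direction and their side of the threshold under the 14 alternatives, from −8.99 to −7.51 for *Pck1*, −8.10 to −7.00 for *Gpd1* and −2.41 to −2.07 for *Dgat1*, and of 111 related genes 96 did so, while 15 changed their call in at least 1. DEGs across all genes numbered 4309 with limma, 4462 with edgeR, 4436 with DESeq2, 4298 with mouse as a block and 3774 to 4374 when a library was left out. The block brought in *Gpihbp1* and *Pcyt1b* and changed no other call among the 119 genes. Shares from CPM not divided by length moved for several genes, as transcripts of unequal length then weigh differently. Among them were *Gpd1* (44.0% in glands, 2.19% in tumors), *Gpd2* in glands (51.8%) and *Gpam* (39.2% and 17.2%). Others were *Agpat2* (22.0% and 2.11%), *Agpat3* in glands (28.6%), *Agpat4* in tumors (15.1%) and *Agpat5* (13.5% and 31.2%). Without division by length, shares were also lower for *Agpat9* and *Agpat1* in both tissues and for *Agpat4* in glands. They were higher for *Agpat3* in tumors and *Lclat1* in glands. These genes are examples and not a full list. Genes at the floor have fitted differences that depend on the pseudocount (*Mogat1* −5.21 at 0.1 and −2.71 at 1), so bounds are given for them, and genes near it move too (*Plin1* −7.41 at 0.1 and −5.70 at 1). *Pck1* had the lowest log2 difference of the genes named at a pseudocount of 0.5, but at 0.1 *Ces1d* was lower (−9.13). Depth limits *Pck1*, *Pcx* and *Gpd1* in T9232, at 3 fragments or fewer.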
